A study of Komagataella phaffii with 6 samples.

Results

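In the methylotrophic yeast Komagataella phaffii kept on methanol, 71 of 5040 genes were taken as higher without a nitrogen source than with one. A gene was taken when its total over the 6 libraries reached 100 counts, when its lowest value without nitrogen lay above its highest value with nitrogen, and when the ratio of the group means was at least 1.7. Values are CPM, the count of a gene divided by the total of its library and scaled to 1000000 counts. Since these are shares of a library, more transcript of one gene and less of all others cannot be told apart. Enough counts were found for 2548 genes. These measurements chose the 71 genes, so their differences between the groups are given below as a description and without a test.

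The cells were strain X-33, labelled wild type. All were first grown for 40 h on glycerol in 100 ml of medium. One group, 3 libraries called "without nitrogen" here, was then moved for 18 h into methanol medium holding no nitrogen source. The other, 3 libraries called "with nitrogen", had the same methanol medium with ammonium sulfate. Both groups therefore shared the change of carbon source, and the labels name no other difference than the nitrogen. The labels do not say whether the 3 libraries of a group came from separate cultures, so the spread between them may be partly technical.

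Yeast cells that run out of nitrogen lower the activity of the TORC1 kinase complex, stop growing and turn to internal and poor external sources. In Saccharomyces cerevisiae, GATA-type transcription factors then switch on permeases and enzymes for less favoured nitrogen compounds, and autophagy carries proteins and organelles to the vacuole for breakdown. In K. phaffii, a common host for protein production, cells on methanol carry large peroxisomes filled with methanol enzymes, and these too can be broken down in the vacuole. The deposited table and the RefSeq gene table give locus tags and positions, but no symbol other than the locus tag for any of the 5040 genes, and neither gives a function or a sequence. None of 12 lists drawn up by symbol (nitrogen permeases, nitrogen assimilation, nitrogen regulation, urea and proline breakdown, autophagy, vacuolar proteases, ubiquitin and proteasome, methanol utilization, peroxisome biogenesis, stress, protein folding, sporulation) could be matched. Which of the 71 genes belong to these processes was therefore not tested, and the genes are called by their locus tags.

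Libraries were 3' end libraries made from 300 ng of total RNA, and their totals of counts on genes were low. Reads wholly in untranslated regions are not counted, so these totals are not the sequencing depth. The libraries without nitrogen held 302837, 395803 and 127303 counts, against 435003, 302395 and 320915 counts in those with nitrogen. One count was worth 3.30, 2.53 and 7.86 CPM without nitrogen, against 2.30, 3.31 and 3.12 CPM with nitrogen, so replicate 3 without nitrogen is the coarsest. The median count of the 71 genes was 56, 77 and 26 in the libraries without nitrogen, and 38, 24 and 29 in those with nitrogen.

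Most of the 71 differences were near 2-fold. Their median ratio was 2.04, from 1.701 to 57.8, beside a median of 0.999 over the 2548 genes with enough counts. At least 2-fold differences were reached by 36 genes, at least 3-fold by 12 and at least 5-fold by 5. The same rule turned round (every value without nitrogen below every value with nitrogen, and a mean at least 1.7 times lower) took 60 genes. Among those 60 the median was 1.91-fold and the largest 4.41-fold, at PAS_chr4_0065, which was named for its place in that list. At least 2-fold differences were reached by 25 of them and at least 3-fold by 6.

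**Figure D1:**
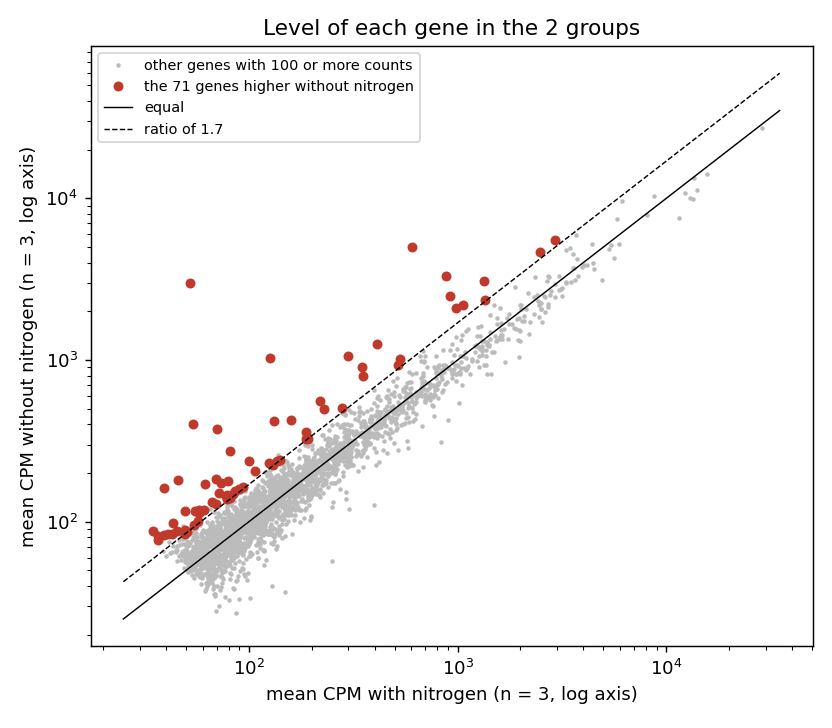
Mean CPM without nitrogen (vertical, log axis) against mean CPM with nitrogen (horizontal, log axis) for the 2548 genes with at least 100 counts. The 71 genes higher without nitrogen are red and lie on or above the dashed line at a ratio of 1.7; one, at 3007 CPM without nitrogen and 52.0 CPM with nitrogen, stands far from all others.

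That gene, PAS_chr1-4_0394 (chr1:2136313-2137797, minus strand, assembly ASM2700v1), is a single coding exon of 1485 bp. It had 2829.9, 2964 and 3228 CPM in the libraries without nitrogen, against 66.7, 36.4 and 53.0 CPM in those with nitrogen. All 3 libraries without nitrogen lay close together, and the lowest of them was 42.4 times the highest library with nitrogen. The means were 3007 ± 203 CPM without nitrogen and 52.0 ± 15.2 CPM with nitrogen (SD, n = 3 each), a ratio of 57.8. In counts the gene had 857, 1173 and 411 without nitrogen, against 29, 11 and 17 with nitrogen. The low level therefore rests on 57 counts in all, for which an exact Poisson interval (95%, counting error only) runs from 40.8 to 69.8 CPM around 53.9 CPM. By mean CPM it ranked 45 among the 2548 genes without nitrogen and 2471 with nitrogen. Per kilobase of coding length these ranks were 107 and 2278. PAS_chr1-4_0675, whose end faces it at 84 bp, stood at 1517% to 2818% of the CPM of PAS_chr1-4_0394 with nitrogen. The strand setting of the counting is not given, so reads of both genes cannot be told apart with certainty. The low level of PAS_chr1-4_0394, its ratio and its ranks with nitrogen are uncertain in this respect.

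A further 4 genes differed by at least 5-fold. PAS_chr1-1_0030 (chr1:594551-596305, minus strand, 1755 bp) had 4214, 5000.0 and 5860.0 CPM in the libraries without nitrogen, against 600.0, 681 and 542 CPM in those with nitrogen, a ratio of 8.27. It gained more counts than any other of the 71 genes, with means of 5024 ± 824 CPM without nitrogen and 608 ± 69.8 CPM with nitrogen (SD, n = 3 each). PAS_chr1-4_0518 (chr1:2352153-2353883, minus strand, 1731 bp) had nearly the same ratio, 8.16, at a lower level, with 954, 1038 and 1099.7 CPM without nitrogen, against 117, 165 and 96.6 CPM with nitrogen. PAS_chr4_0626 (chr4:1218492-1220339, minus strand, 1848 bp) had 452, 417 and 338 CPM without nitrogen, against 52.9, 62.8 and 46.7 CPM with nitrogen, a ratio of 7.43. For this gene replicate 3, with the fewest counts, was the lowest of the libraries without nitrogen, yet it was still 5.38 times the highest with nitrogen. PAS_chr1-1_0127 (chr1:791819-792985, plus strand, 1167 bp) had 350.0, 414 and 361 CPM without nitrogen, against 66.7, 86.0 and 59.2 CPM with nitrogen, a ratio of 5.31. Of the 5 genes at or above 5-fold, 4 lie on chromosome 1 and 1 on chromosome 4, and all 5 are single coding exons. Of the 2548 genes with enough counts, 766 lie on chromosome 1 and 491 on chromosome 4, and 11.8% have more than 1 coding exon. So few genes allow no reading of either count.

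Between 3-fold and 5-fold lay 7 genes. The one with the most counts was PAS_chr4_0514 (chr4:1006621-1008180, minus strand, 1560 bp), at 3256, 3335 and 3346 CPM in the libraries without nitrogen, against 917, 889.6 and 844 CPM in those with nitrogen. Its libraries varied little within a group, and the means were 3312 ± 49.3 CPM without nitrogen and 884 ± 36.7 CPM with nitrogen (SD, n = 3 each). PAS_chr2-2_0279 (chr2:1868186-1869103, plus strand, 918 bp) had 1129, 1288 and 1375 CPM without nitrogen, against 405, 357 and 464 CPM with nitrogen, a ratio of 3.09. PAS_chr2-2_0391 (chr2:1655878-1657326, minus strand, 1449 bp) had 895, 988 and 1304 CPM without nitrogen, against 345, 255 and 299 CPM with nitrogen, a ratio of 3.55. In both, replicate 3 was the highest library without nitrogen, and the nearest values of the groups were still more than 2-fold apart (2.43 and 2.60 times).

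The other 4 genes of this class had lower levels with nitrogen. PAS_chr1-4_0441 (chr1:2221476-2224184, plus strand), with 2 coding exons and 2139 bp of coding length, had 175, 195 and 118 CPM without nitrogen, against 43.7, 36.4 and 37.4 CPM with nitrogen. PAS_chr2-1_0055 (chr2:98740-100866, plus strand, 2127 bp) had 208, 179 and 157 CPM without nitrogen, against 50.6, 36.4 and 49.9 CPM with nitrogen. Ratios were 4.15 and 3.98, resting on 11 to 22 counts per library with nitrogen. PAS_chr1-1_0141 (chr1:822741-823988, minus strand, 1248 bp) had 215, 265 and 338 CPM without nitrogen, against 85.1, 92.6 and 65.4 CPM with nitrogen, a ratio of 3.36. PAS_chr4_0173 (chr4:350142-355640, plus strand), with one of the longer coding sequences of the 71 at 5499 bp, had 317, 412 and 526 CPM without nitrogen, against 140.2, 142 and 112 CPM with nitrogen, a ratio of 3.18. In the last 2 the libraries without nitrogen differed among themselves by more than 1.5-fold, with replicate 1 lowest and replicate 3 highest. PAS_chr1-4_0441 was as uneven without nitrogen, but there replicate 3 was lowest, on 15 counts.

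**Figure D2:**
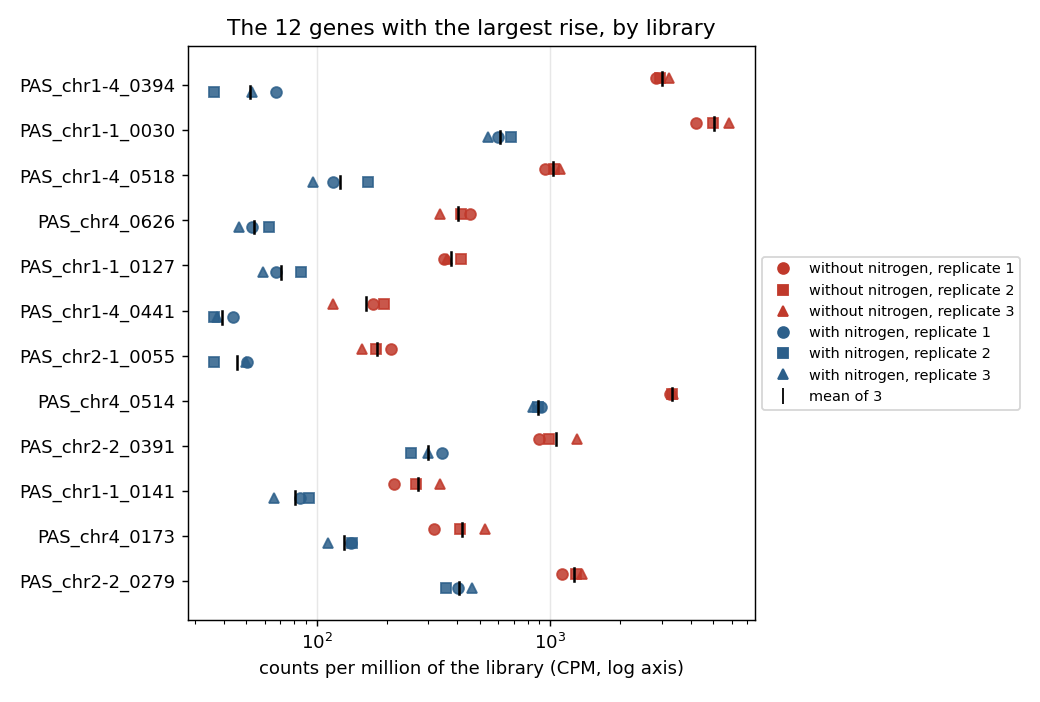
CPM (log axis) of the 12 genes with the largest ratio in each of the 6 libraries, with a black bar at the mean of 3. The groups are well apart for every gene shown; the widest separation is at PAS_chr1-4_0394 and the narrowest at PAS_chr4_0173, whose lowest library without nitrogen is 2.23 times its highest with nitrogen.

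Differences of 2-fold to 3-fold were found for 24 genes, at 77.2 to 3099 CPM without nitrogen and 34.8 to 1335 CPM with nitrogen. PAS_chr4_0287 (chr4:577083-578861, plus strand, 1779 bp) had 2572, 2369.9 and 2474 CPM without nitrogen, against 853, 949 and 972 CPM with nitrogen, a ratio of 2.67. PAS_chr3_1024 (chr3:1965276-1971692, minus strand, 6417 bp) had 3068, 3206 and 3024 CPM without nitrogen, against 1347, 1247 and 1412 CPM with nitrogen, a ratio of 2.32. Both were steady within groups, and the groups were more than 2-fold apart at their nearest values. At the other end stood genes with few counts. PAS_chr1-3_0269 (chr1:488587-490008, minus strand), with the lowest mean with nitrogen of all 71, had 95.8, 65.7 and 102 CPM without nitrogen, against 50.6, 13.2 and 40.5 CPM with nitrogen. PAS_chr3_0286 (chr3:565611-567137, minus strand) had 92.5, 73.3 and 78.6 CPM without nitrogen, against 16.1, 52.9 and 40.5 CPM with nitrogen. PAS_FragB_0003 (chr1:2673205-2674467, minus strand) had 95.8, 80.8 and 55.0 CPM without nitrogen, against 52.9, 23.1 and 34.3 CPM with nitrogen. In these 3 genes a library held as few as 4 counts, and values within a group were uneven.

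The remaining 35 genes lay between 1.701-fold and 1.985-fold, at 84.2 to 5550.5 CPM without nitrogen and 42.8 to 2917 CPM with nitrogen. Just inside the limit of 1.7 were PAS_chr2-1_0246, PAS_chr2-2_0080 and PAS_chr2-2_0133, with ratios of 1.701, 1.704 and 1.718. Just outside it, with groups apart, were PAS_chr3_0890, PAS_chr3_0691 and PAS_chr1-3_0150, with ratios of 1.699, 1.697 and 1.689. PAS_chr2-1_0246 had 369.8, 283 and 322 CPM without nitrogen, against 253, 149 and 171 CPM with nitrogen, and PAS_chr3_0890, outside, had 119, 139 and 212 CPM without nitrogen, against 94.3, 82.7 and 99.7 CPM with nitrogen. Values on either side of the limit thus look alike. In all, 193 genes with enough counts had groups apart in the same direction at a ratio under 1.7. Another 11 reached 1.7 while their groups overlapped, and 82 met both conditions with fewer than 100 counts.

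Separation of the groups ranged from wide to marginal. The lowest library without nitrogen was at least 2 times the highest with nitrogen in 16 of the 71 genes, at least 1.5 times in 34, and under 1.1 times in 7, with a median of 1.46. The narrowest gaps were at PAS_chr4_0769, PAS_chr2-2_0080 and PAS_chr4_0687, where the nearest values stood 1.01, 1.02 and 1.04 times apart. PAS_chr4_0769 had 85.9, 60.6 and 141 CPM without nitrogen, against 59.8, 59.5 and 43.6 CPM with nitrogen, so replicate 2 without nitrogen differed from replicate 1 with nitrogen by less than the worth of 1 count. PAS_chr4_0928, left out for an overlap of the same small size, had 59.4, 78.3 and 86.4 CPM without nitrogen, against 59.8, 26.5 and 37.4 CPM with nitrogen.

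Starting levels spread widely. With nitrogen the 71 genes had a median of 81.0 CPM, from 34.8 to 2917, against 134 CPM over all 2548 genes with enough counts. Without nitrogen the median was 183 CPM, against 139 CPM over the 2548 genes. The count minimum shapes the low end: at their level with nitrogen in all 6 libraries, 16 of the 71 genes would have stayed under 100 counts, so they entered through their high group. Under 50 CPM with nitrogen 14 of 52 genes (26.9%) were among the 71, with a median ratio of 2.11, but genes this low mostly reached 100 counts only through a higher level without nitrogen, so this share is set by the count minimum. Of 833 genes between 50 and 100 CPM with nitrogen, 27 (3.24%) were among the 71, with a median ratio of 1.97. Between 100 and 500 CPM it was 19 of 1303 (1.46%), with a median ratio of 1.92, and above 500 CPM 11 of 360 (3.06%), with a median ratio of 2.07. Since the rule sets a lower limit of 1.7 on every ratio, nothing is read from how close these medians lie.

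The genes that took the most counts were mostly not those with the largest ratio, and only 3 were among the 12 described first (PAS_chr1-1_0030, PAS_chr1-4_0394 and PAS_chr4_0514). By mean CPM without nitrogen the first 8 were PAS_chr4_0589, PAS_chr1-1_0030, PAS_chr4_0917, PAS_chr4_0514, PAS_chr3_1024, PAS_chr1-4_0394, PAS_chr4_0287 and PAS_chr2-2_0019. PAS_chr4_0589 (chr4:1152262-1152600, minus strand), a coding sequence of only 339 bp, had 5343, 5983 and 5326 CPM without nitrogen, against 3034, 3648 and 2069 CPM with nitrogen, a ratio of 1.90. Its libraries with nitrogen were uneven, with replicate 2 highest and replicate 3 lowest. PAS_chr4_0917 (chr4:144128-145489, plus strand, 1362 bp) had 4514, 4505 and 4933 CPM without nitrogen, against 2237, 2685 and 2502 CPM with nitrogen, a ratio of 1.88. PAS_chr2-2_0019 (chr2:2357846-2358685, plus strand, 840 bp) had 2173, 2228 and 2608 CPM without nitrogen, against 1428, 1269.9 and 1343 CPM with nitrogen, a ratio of 1.73. These 3 genes also had the highest means with nitrogen of the 71.

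Per kilobase of coding length the order changed. PAS_chr4_0589 was first at 16373 CPM per kb without nitrogen and 8605 with nitrogen, PAS_chr4_0917 followed at 3415 without nitrogen and 1817 with nitrogen, and PAS_chr1-1_0030 at 2863 without nitrogen and 346 with nitrogen. PAS_chr3_1024, with its long coding sequence, stood at 483 CPM per kb without nitrogen and 208 with nitrogen. On this scale 4 of the 71 genes were among the 100 highest of the 2548 without nitrogen, and 1 was among them with nitrogen. A 3' end library gives about one fragment per transcript whatever its length, so dividing by coding length favours short coding sequences. CPM is the fitter scale here. By CPM, 10 of the 71 genes were among the 100 highest without nitrogen and 2 with nitrogen. Even on that scale, levels of different genes are comparable only roughly.

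Together the 71 genes took 4.93%, 5.11% and 5.38% of all counts in the libraries without nitrogen, against 2.04%, 2.07% and 1.89% in those with nitrogen. The means were 5.14% ± 0.225 without nitrogen and 2.003% ± 0.0962 with nitrogen (SD, n = 3 each), a difference of 3.14 percentage points. The 8 genes named above held 2.95% ± 0.142 of counts without nitrogen and 1.05% ± 0.0836 with nitrogen, and the other 63 held 2.19% ± 0.0892 without nitrogen and 0.949% ± 0.0402 with nitrogen (SD, n = 3 each). Of the counts added by all 71, 14.1% came from PAS_chr1-1_0030 alone, 46.6% from the 5 largest additions and 67.5% from the 10 largest. The 35 genes under 2-fold gave 29.0%. The 60 lower genes, for comparison, took 1.03% ± 0.0188 without nitrogen and 1.98% ± 0.0413 with nitrogen.

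**Figure D3:**
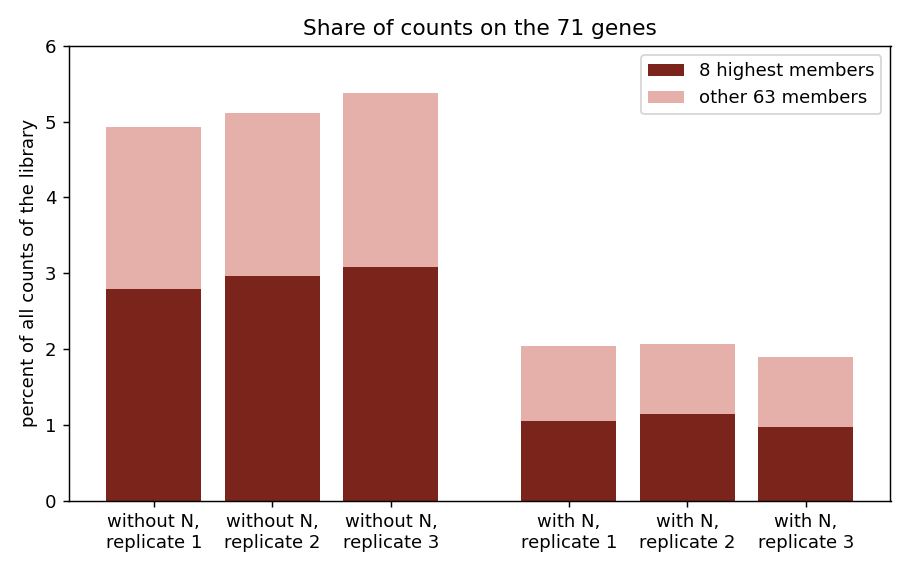
Percent of all counts of each library on the 71 genes, split into the 8 with the most counts (dark) and the other 63 (light). The libraries without nitrogen reach 4.93% to 5.38% and those with nitrogen 1.89% to 2.07%. Both parts are larger in every library without nitrogen, which the rule for the 71 genes fixes in advance.

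Within a group the genes did not all follow the same library. Without nitrogen, replicate 3 was the highest library for 32 of the 71 genes, replicate 1 for 21 and replicate 2 for 18. Over all 2548 genes replicate 3 was highest for 39.2%, replicate 1 for 27.4% and replicate 2 for 33.4%. The coefficient of variation of the 71 genes had a median of 14.6% without nitrogen and 17.3% with nitrogen, beside 18.5% without nitrogen and 15.6% with nitrogen over the 2548 genes. The median was thus smaller than over all genes without nitrogen and larger with nitrogen. The rule used the same values, so nothing is read from this. The most uneven of the 71 without nitrogen, named after its values were seen, was PAS_chr4_0807, at 72.6, 104 and 173 CPM without nitrogen, against 39.1, 46.3 and 62.3 CPM with nitrogen.

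A test across the whole table gives a frame for these values. The quasi-likelihood test of edgeR, adjusted by Benjamini and Hochberg's method over all genes tested, called 122 of 3330 genes higher without nitrogen (3.66%) at an adjusted p under 0.05. The number of higher calls depended on single libraries. It was 70 without replicate 1 and 81 without replicate 2 of the cells without nitrogen, and 78 without replicate 1 and 80 without replicate 2 of those with nitrogen, while leaving out either replicate 3 gave 105 (without nitrogen) and 95 (with nitrogen). All 71 genes entered that test and 54 were among the 122, but the rule used the same contrast, so nothing is read from this count. The 17 that were not called had at most 228 counts in total and a ratio of at most 2.11. Among them were PAS_chr4_0769, PAS_chr2-2_0080, PAS_chr2-2_0133, PAS_FragB_0003, PAS_chr1-1_0340, PAS_chr1-1_0462 and PAS_chr1-3_0123, which are named in this text. Of the 68 higher calls outside the 71, 60 had a ratio under 1.7, 7 had fewer than 100 counts, and 1 had overlapping groups. DESeq2 called 66 genes higher (2.38% of 2768 with an adjusted p), 36 of them among the 71. Groups were apart, with every library without nitrogen above every library with nitrogen, in 10.4% of the 2548 genes, and a ratio of at least 1.7 was reached by 3.22%.

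Because the rule used all 6 libraries, the choice was repeated with libraries left out, and the chosen genes were read in those. With 1 library without nitrogen and 1 with nitrogen left out, the other 4 chose between 64 and 76 genes, over the 9 such pairs. In the left-out pair, 80.0% to 95.4% of the chosen genes were higher without nitrogen than with it. With replicate 1 without nitrogen read against replicates 1, 2 and 3 with nitrogen, 60 of 75, 65 of 72 and 63 of 68 chosen genes were higher, beside 42.8%, 45.8% and 46.9% of all genes with at least 100 counts in the 4 libraries. Replicate 2 gave 63 of 75, 62 of 65 and 56 of 64, beside 47.5%, 54.0% and 52.6% of all genes. Replicate 3, with the fewest counts, gave 62 of 76, 57 of 67 and 56 of 68, beside 47.2%, 52.1% and 52.7%. The chosen genes thus exceeded the share over all genes in all 9 readings. The median ratio of the chosen genes was 1.90 to 2.11 in the libraries that chose them and 1.56 to 1.84 in the left-out pair, beside 0.951 to 1.03 for all genes there. Most genes chosen on 4 libraries thus kept their direction in the pair left out, at a smaller size. These lists of 64 to 76 genes are not the list chosen on all 6 libraries. The libraries of a group may not be separate cultures, so a left-out library may be a technical repeat. The readings therefore do not test an effect of nitrogen on the genes chosen on all 6 libraries. The 9 readings share libraries and are not independent of each other.

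**Figure D4:**
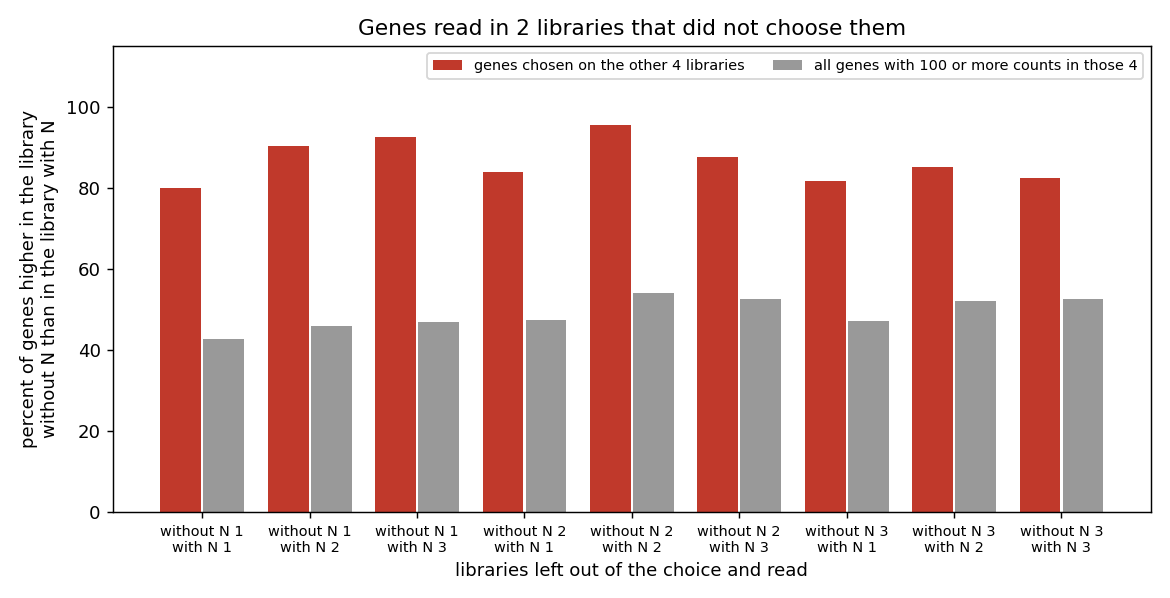
For each of the 9 pairs of libraries left out of the choice, the percent of genes that were higher in the library without nitrogen than in the one with nitrogen. Red bars are genes chosen by the rule on the other 4 libraries (80.0% to 95.4%), and grey bars are all genes with at least 100 counts in those 4 (42.8% to 54.0%).

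On the chromosomes the 71 genes were scattered. Chromosome 1 held 25 of them, 3.26% of its genes with enough counts, chromosome 2 held 17 (2.50%), chromosome 3 held 8 (1.31%) and chromosome 4 held 21 (4.28%), beside 2.79% over all. Within 50 kb of a chromosome end lay 2 of the 71, or 2.11% of the genes with enough counts there. The plus strand carried 34 of the 71 (47.9%), beside 50.7% of the 2548. Coding lengths ran from 246 to 6648 bp with a median of 1512 bp, beside 1302 bp over the 2548 genes, and 8 of the 71 (11.3%) had more than 1 coding exon, beside 11.8%. Successive members on a chromosome were a median of 88685 bp apart, and 3 successive pairs lay less than 10 kb apart.

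In 2 places, described below, a direct neighbour was itself among the 71. All other neighbours with enough counts miss the rule by definition, so only smaller or overlapping differences can be read in them. For 69 neighbours with enough counts that were not themselves among the 71, the median ratio was 1.03. It was 0.990 for all 2477 genes with enough counts outside the 71, these neighbours included. A ratio above 1 was found for 40 of the 69 (58.0%), beside 48.4% of the 2477. Groups were apart in the same direction for 6 of these 69 neighbours (8.70%), beside 7.79% of the 2477. The median ratio was 1.13 for 15 convergent neighbours, whose ends face each other, 1.05 for 20 divergent and 1.0045 for 34 in tandem. Around PAS_chr1-4_0394, the 18 genes with enough counts within 25 kb had ratios of 0.554 to 1.74 with a median of 0.918, and none was among the 71. Its convergent neighbour PAS_chr1-4_0675, 84 bp from its end, had 809, 897 and 911 CPM without nitrogen, against 1012, 1025 and 1262 CPM with nitrogen, so the gene with the largest difference sat beside one that was lower without nitrogen in every library.

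Around PAS_chr1-1_0030, 2 of 16 genes with enough counts within 25 kb were among the 71, beside 2.79% over all genes. The median ratio of these 16 genes was 1.04. So few genes around a single gene allow no reading of the stretch. PAS_chr1-1_0465 (chr1:598051-599640, minus strand), 1745 bp away with 1 gene between, had 205, 205 and 204 CPM without nitrogen, against 131, 76.1 and 112 CPM with nitrogen. PAS_chr1-1_0462 (chr1:575900-578170, minus strand), 16380 bp away on the other side, had 69.3, 65.7 and 118 CPM without nitrogen, against 55.2, 26.5 and 40.5 CPM with nitrogen. The first was steady without nitrogen. The second was uneven, had 107 counts in total and was not called by edgeR. Among the other genes with enough counts in this stretch the highest ratio was 1.54, at PAS_chr1-1_0029, the direct neighbour on one side.

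**Figure D5:**
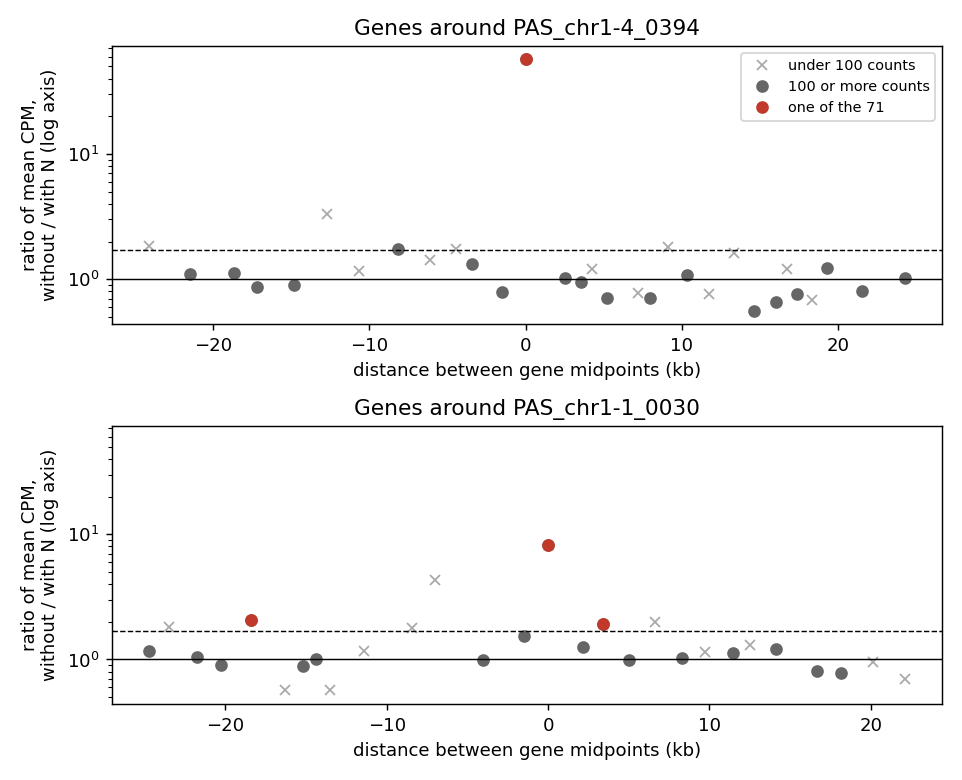
Ratio of mean CPM without over with nitrogen (log axis) for genes within 25 kb of the 2 genes with the largest ratio, by distance between gene midpoints in kb. Dots have at least 100 counts, crosses fewer, red dots are among the 71, the solid line is a ratio of 1 and the dashed line 1.7. In the upper panel the central gene is the only red dot, and in the lower panel PAS_chr1-1_0030 is joined by 2 others, at 1.92 and 2.07.

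In 2 places members were direct neighbours, and both pairs were convergent. PAS_chr1-1_0341 (chr1:1200349-1201962, minus strand) had 915, 884 and 927 CPM without nitrogen, against 398, 327 and 321 CPM with nitrogen, and PAS_chr1-1_0340 (chr1:1196716-1200225, plus strand), 123 bp away, had 95.8, 58.1 and 94.3 CPM without nitrogen, against 41.4, 23.1 and 53.0 CPM with nitrogen. The ratios were 2.61 and 2.11, and PAS_chr1-1_0340 stood at 6.57% to 10.5% of its neighbour's CPM without nitrogen and 7.07% to 16.5% with nitrogen. The second pair, PAS_chr1-3_0122 (chr1:229631-231142, plus strand) and PAS_chr1-3_0123 (chr1:231199-232068, minus strand), is 56 bp apart. PAS_chr1-3_0122 had 340.1, 346 and 314 CPM without nitrogen, against 195, 205 and 168 CPM with nitrogen, and PAS_chr1-3_0123 had 168, 111 and 134 CPM without nitrogen, against 75.9, 79.4 and 81.0 CPM with nitrogen, with ratios of 1.76 and 1.75. PAS_chr4_0174, 124 bp from the end of PAS_chr4_0173 and facing it, reached a ratio of 2.17 with overlapping groups, at 49.5, 98.5 and 102 CPM without nitrogen, against 36.8, 62.8 and 15.6 CPM with nitrogen. The strand setting of the authors' counting is not given in the sources used here, so reads from facing genes cannot be told apart with certainty, and the lower gene of each pair is uncertain. The coding region of 1 of the 71 genes, PAS_chr2-1_0237, overlaps that of its neighbour by 11 bp and is uncertain in the same way.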

How the data were processed

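The values deposited by the authors are raw read counts per gene, not normalized, in a single table with 3 libraries of each group. The tools Trimmomatic, HISAT2 and featureCounts appear in the submitters' processing notes. Their versions and settings, the strand and the handling of multiply matching reads are not given in the sources consulted, so genes with near-identical copies are uncertain. Libraries were QuantSeq 3' end libraries, per the labels' protocols. All 5040 locus tags and positions matched RefSeq assembly ASM2700v1 (strain GS115), and all 5040 lengths are multiples of 3, so they are coding lengths and reads wholly in untranslated regions are not counted.

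CPM used column sums of 302395 to 435003 counts, and 127303 for replicate 3 without nitrogen. The rule for the 71 genes, the lists and the tests were chosen with earlier results of these data known. Genes named by plan are the 12 with the largest ratio, the 8 with the highest mean without nitrogen, and 3 at each end of the level with nitrogen. The plan also took 3 on each side of the ratio limit, the 3 narrowest gaps and adjacent members. All others, such as PAS_chr4_0928, PAS_chr1-4_0675 and PAS_chr1-1_0465, were named outside this plan, for their values or their position. The whole table was fitted with edgeR 4.0.16 in R 4.3.3 (TMM, filterByExpr with a minimum count of 10, quasi-likelihood F-test, two-sided, no block), and with DESeq2 1.42.0 as an alternative; both use a threshold of 0.05 on the adjusted p. No replicate pair agreed within counting noise (chi-square over its degrees of freedom 1.74 to 2.48), so none was treated as 1 library deposited again; this does not show separate cultures. Counting intervals cover counting error only, since no molecular identifiers are mentioned. Protein and promoter features planned for these genes, and gene lists, were not analysed here.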

Additional observations from a re-analysis of the deposited data

How the results depend on the processing

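Scaling hardly moved the choice: TMM gave 72 genes, 69 of them among the 71, and DESeq2's size factors gave 71, with 68 shared. Medians in place of means gave 71, with 60 shared, and dropping the condition on overlap gave 82. The thresholds set the number by construction: 107 genes at 50 counts, 47 at 200 counts, 124 at a ratio of 1.5 and 36 at a ratio of 2. With every library thinned to 127303 counts in 1 draw, 45 genes were chosen, 32 of them among the 71. Fewer genes can reach 100 counts at these smaller totals, so this drop too is partly by construction. Leaving out 1 library gave 69 to 88 genes, 55 to 58 of them shared, and a difference in the share of counts of 3.02 to 3.24 percentage points; TMM gave 3.20. edgeR called 211 genes in both directions, DESeq2 113, and edgeR with a library left out 129 to 183. The count dropped by over 1.5 times when replicate 2 with nitrogen (132), or replicate 1 (132) or replicate 2 (129) without nitrogen, was left out; the higher calls alone were 70 to 105. Of the 71, 54 were called higher by edgeR, 36 by DESeq2, and 42 to 50 with a library left out. Adding the replicate block left 168 calls, among them 53 of the 71. Deviations of same-numbered libraries correlated at -0.067, -0.0321 and -0.0579, so a pairing by number is not shown. Under 2 other scalings none of the 32 genes named by plan changed direction or moved by more than the spread between replicates. Reading 1 left-out library of each group against the other was added after the data were seen, in place of the planned reading of 1 library against the libraries that chose the genes, whose values the choice itself raises. No gene function, sequence or protein feature could be set beside these values, and causes were not tested.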
